A study of Mus musculus with 17 samples.

Results

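A set of 9 genes of the complement system, C1qa, C1qb, C1qc, C1s1, C2, C3, C4b, C7 and Cfb, were followed through all 17 single-cell RNA-Seq libraries of the study. They were chosen by name, with earlier results of these data known, and they are 9 of the 30406 genes that the libraries list in common. Cells were sorted as PDGFR-β+GFP+ from mice in which PDGFRb-Cre switches on the Z/EG reporter, either with a transgene that holds the human SARA (ZFYVE9) cDNA and is itself switched on by Cre (SARATg) or without it (SARAWT), all 8 weeks old. The 8 skin libraries came from mice injected 3 times per week for 2 weeks, by the labels, with PBS (3 SARAWT and 1 SARATg) or with 20 mg/kg bleomycin (3 SARAWT and 1 SARATg). The 9 kidney libraries came from mice injected 3 times per week for 3 weeks with vehicle (3 SARAWT and 2 SARATg) or with 5 mg/kg aristolochic acid (3 SARAWT and 1 SARATg). Bleomycin is used to provoke skin fibrosis, and aristolochic acid is a plant toxin that injures the kidney tubule. Every group carries PDGFRb-Cre and the reporter. The sorted cells were not pericytes alone, as the cell types below show, and reporter reads were not examined. The skin SARATg groups hold 1 library each, and no test of the transgene was made in skin.

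Complement is a cascade of plasma and tissue proteins that tags microbes, dying cells and immune complexes for removal. In the classical pathway the recognition molecule C1q, assembled from the A, B and C chains, binds its target and activates the proteases C1r and C1s, which cut C4 and C2 to form a convertase that cleaves C3. In the alternative pathway factor B (Cfb) forms the convertase together with C3b, and C7 belongs to the terminal proteins that assemble the membrane attack complex. Much of the plasma supply is made by the liver, whereas C1q is largely made by macrophages, and stromal and epithelial cells can make C3, C4 and C1s locally.

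Cells were placed in classes by 10 marker genes per class, none of them a complement gene: a cell had to show at least 3 markers of a class and lead the next class by at least 2. The classes used most were macrophages (4672 cells in skin and 5250 in kidney), fibroblastic stromal cells in skin (3123 cells) and proximal tubule cells in kidney (19886 cells). Between 2.82% and 8.84% of the cells of these classes lay next to the limit of the gate. In skin 22.2% of the cells kept entered no class (13.4% to 45.5% per library), and 14.8% were myeloid cells not resolved further. In kidney these shares were 4.18% and 2.57%. Genes outside the gates bore out the names. Tyrobp, a myeloid signalling adaptor, averaged 1226 CPM (the UMIs of a gene in the summed cells of a class, scaled to the class total) in skin macrophages and 24.6 CPM in fibroblastic cells, and Sparc, a matrix glycoprotein, averaged 10617 CPM in fibroblastic cells and 23.2 CPM in macrophages. Cdh16, a kidney cadherin, averaged 234 CPM in proximal tubule cells and 5.02 CPM in kidney macrophages, where Tyrobp averaged 2806 CPM against 21.6 CPM in the tubule. Pdgfrb, the gene the sort was designed around, averaged 115 CPM in fibroblastic cells, 512 CPM in mural cells, 0.917 and 0.914 CPM in macrophages of skin and kidney and 0.0545 CPM in proximal tubule cells.

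Of 107534 barcodes, 86382 cells were kept, with 776 to 6203 cells per skin library and 3837 to 9115 per kidney library. The libraries held 3355217 to 69765525 UMIs in skin and 28660151 to 137093834 in kidney. The transgene is checked by the human ZFYVE9 entry where a library lists it and otherwise by mouse Zfyve9. Mouse Zfyve9 stood at 7.91 to 25.9 CPM in 5 of the 6 SARAWT skin libraries, at 314 and 221 CPM in the SARATg PBS and bleomycin libraries, and at 615 CPM in the library labelled SARAWT PBS 3. The human entry, listed for 4 skin libraries that are all labelled SARAWT, held 28671 UMIs (845 CPM) in PBS 1, 638 (190 CPM) in PBS 2, 2115 (89.3 CPM) in bleomycin 1 and 2558 (115 CPM) in bleomycin 2. In kidney Zfyve9 stood at 9.63 to 31.8 CPM in the SARAWT vehicle libraries and at 99.7 and 93.6 CPM in the SARATg vehicle libraries. It stood at 159 CPM in the library labelled SARAWT aristolochic acid 1, at 12.4 and 12.9 CPM in the other two, and at 19.5 CPM in the library labelled SARATg aristolochic acid. Transgene reads in these 4 skin libraries, and mouse Zfyve9 in the libraries labelled skin SARAWT PBS 3, kidney SARAWT aristolochic acid 1 and SARATg aristolochic acid, therefore went against the labels. As 5 of the 6 SARAWT skin libraries are among them, no skin comparison could be made without all of them. Within each gene list the SARAWT PBS libraries stood above the SARAWT bleomycin libraries. The human entry held 845 and 190 CPM against 89.3 and 115 CPM, and mouse Zfyve9 held 615 CPM in PBS 3 against 8.91 CPM in bleomycin 3. The part of this difference in the skin comparisons between bleomycin and PBS was not tested. Comparisons were also run without each library in turn, except that the last one below could not be fitted without the single SARATg aristolochic acid library. Whether the barcodes shared between libraries, described next, carried the human reads was not tested.

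The same 4 skin libraries that list the human gene (SARAWT PBS 1, PBS 2, bleomycin 1 and bleomycin 2) share cell barcodes far beyond the others. The part of their barcodes that was also present elsewhere in skin was 7.38%, 55.5%, 17.6% and 22.1%, compared with 0.824% or less in the remaining 4 and 1.66% to 2.13% between kidney libraries. Fibroblastic cells had a larger shared part than these libraries as a whole: 153 of 677 in PBS 1, 133 of 166 in PBS 2, 119 of 157 in bleomycin 1 and 142 of 202 in bleomycin 2. Of the classes only this one and macrophages were examined, so the values do not show where most shared barcodes lay. Those shared fibroblastic cells had median depths of 878 to 1074 UMIs, against 2666 to 12118 UMIs in the unshared fibroblastic cells of the same libraries. In macrophages the shared cells were 1.69%, 48.6%, 9.09% and 14.3%. The skin fold changes of SARAWT are therefore also given without the shared barcodes.

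The 3 chains of C1q marked macrophages in both tissues. C1qa, C1qb and C1qc lie next to each other on the minus strand of chromosome 4 (C1qb at chr4:136880129-136886187, C1qc at chr4:136889804-136893065 and C1qa at chr4:136895917-136898803 of GRCm38). In skin macrophages the lowest, median and highest of the 8 libraries were 1161, 2237 and 3696 CPM for C1qa, 1333, 2335 and 3968 CPM for C1qb and 825, 1484 and 2321 CPM for C1qc. In kidney macrophages the corresponding values over 9 libraries were 5003, 5966 and 7436 CPM for C1qa, 5123, 6213 and 7554 CPM for C1qb and 2583, 3602 and 4193 CPM for C1qc. The lowest kidney library thus stood above the highest skin library for each chain; tissue, counting version and dissociation cannot be told apart here.

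All other resolved cell types stood far below macrophages in C1q. Monocytes, the next resolved class in skin, held 14.0 to 181 CPM of C1qa. T and NK cells, which do not make C1q, held at most 14.4 CPM of C1qa in skin and 0.839 to 144 CPM in kidney. Of all C1qa, C1qb and C1qc UMIs, 90.5%, 87.2% and 90.4% lay in skin macrophages as a mean over libraries. With every cell thinned to 1000 UMIs (117 shallower cells left out), 70.4% of skin macrophages held a C1qa UMI as a mean over libraries, against 0.19% of T and NK cells (15 left out); unthinned shares were 81.7% and 2.95%. In kidney the thinned shares of C1qa were 94.8% of macrophages (12 left out) and 1.03% of T and NK cells (116 left out), and the unthinned ones 97.7% and 3.37%.

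Within macrophages the ratio of C1qb to C1qa UMIs was 1.03 ± 0.0359 in kidney (SD, n = 9 libraries, 0.977 to 1.09) and 1.06 ± 0.126 in skin (n = 8, 0.798 to 1.16), and that of C1qc to C1qa was 0.567 ± 0.0251 and 0.687 ± 0.0532. In skin the C1qc to C1qa ratio was 0.751, 0.713 and 0.710 in the libraries labelled SARAWT PBS 1, 2 and 3 and 0.628, 0.682 and 0.642 in bleomycin 1, 2 and 3, without overlap, and 0.751 and 0.617 in SARATg PBS and bleomycin, a difference that was not tested. These are ratios of UMIs counted at transcript ends and not of protein. The lowest C1qb to C1qa ratio came from the library labelled SARAWT PBS 1. Across the sums of 13 cell classes by library in skin (85 sums), log2(CPM + 1) of the chains correlated with each other at Pearson r of 0.86 to 0.89, and in kidney (111 sums of 16 classes) at 0.93 to 0.94. These sums share libraries and depth, and r is given as a description. The genes outside the complement list with the most similar pattern were Folr2, Ccl12 and F13a1 in skin (r of 0.83 to 0.88) and Mmp12 and Trem2 with, by chain, Stab1, Msr1 or Lilra5 in kidney (0.78 to 0.82).

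**Figure D1:**
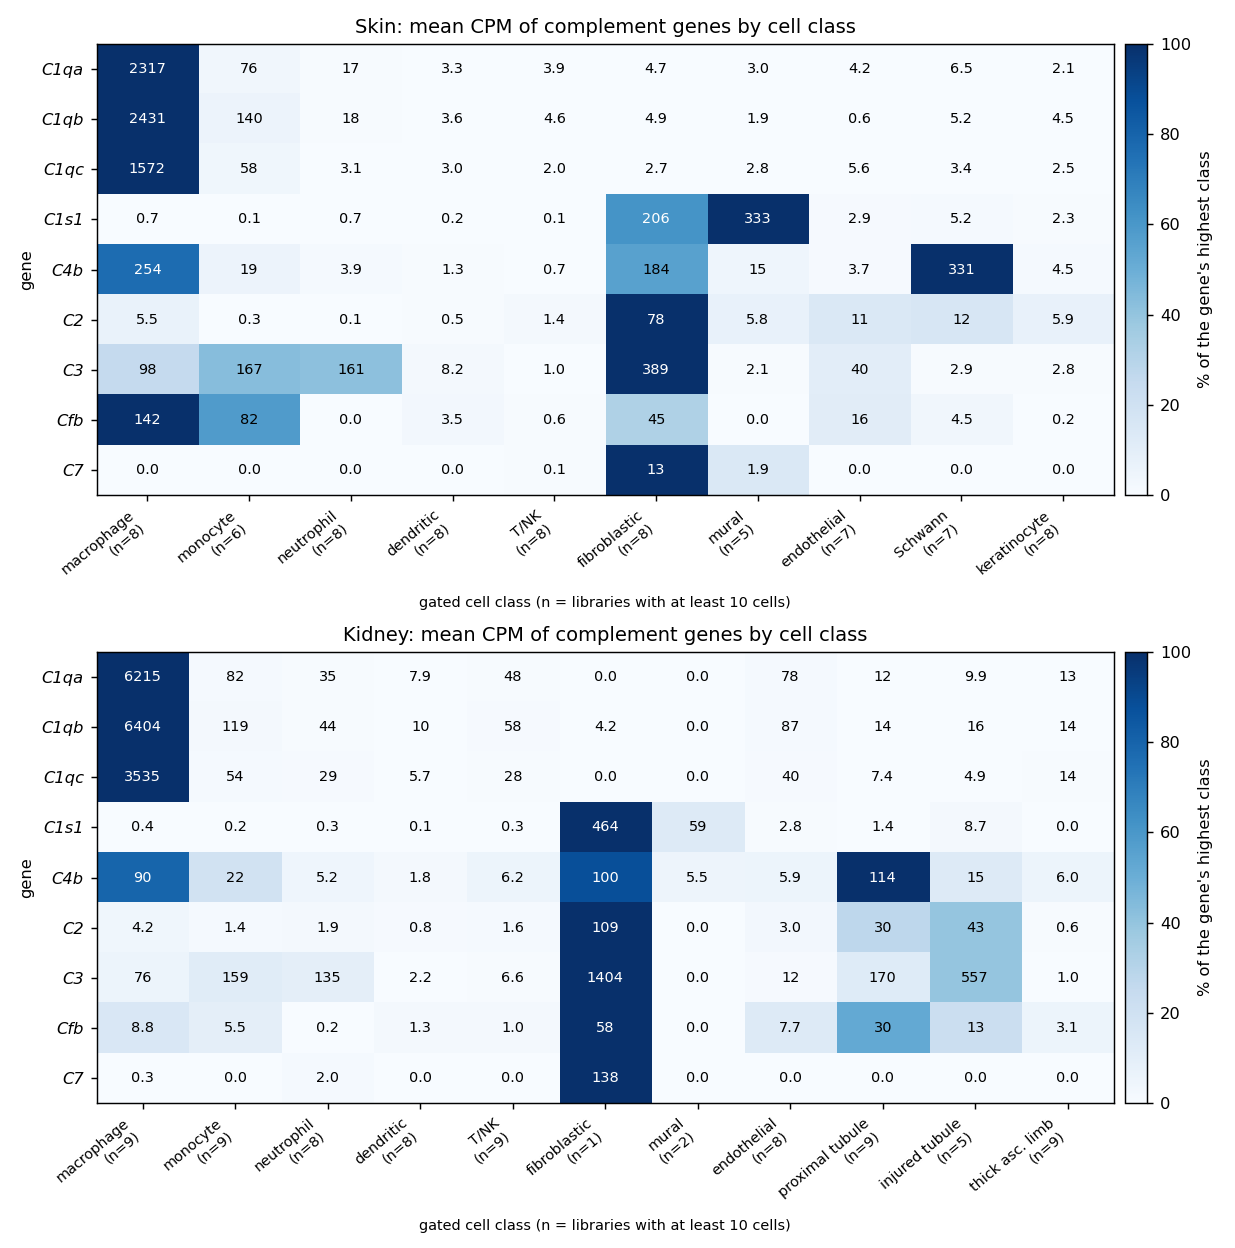
Mean CPM of the 9 complement genes (rows) in each gated cell class (columns) of skin and kidney, averaged over the libraries with at least 10 cells of the class. Colour gives the percentage of the gene's highest class. The C1q chains peak in macrophages of both tissues, within skin C1s1, C2, C3 and C7 are highest in stromal cells, and C2 and Cfb extend to the proximal tubule in kidney. The kidney fibroblastic column rests on 1 library with 36 cells and stands higher than skin for C1s1 (464 CPM), C2 (109 CPM), C3 (1404 CPM) and C7 (138 CPM).

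The promoter sequences of C1qb and C1qc are shown because these genes had the same cell-type pattern, and that of C3 because C3 is the gene whose treatment differences were unlike in the 2 skin cell types. Of the 9 genes, 5 (C1qb, C1qc, C1s1, C3 and C7) had an entry in the RefSeq promoter table of GRCm38.p6, and the 250 bases before the RefSeq start of 3 are given on the minus strand, 5′ to 3′. For C1qc this start lies inside the gene span given above, which ends at 136893065, so that part of its printed window lies within that span. Capitals mark a match to GAGGAA (the PU.1 core, TTCCTC when read on the opposite strand) in C1qb and C1qc and to TTGCNNAA (the C/EBP family) in C3.
C1qb (chr4:136886201-136886450): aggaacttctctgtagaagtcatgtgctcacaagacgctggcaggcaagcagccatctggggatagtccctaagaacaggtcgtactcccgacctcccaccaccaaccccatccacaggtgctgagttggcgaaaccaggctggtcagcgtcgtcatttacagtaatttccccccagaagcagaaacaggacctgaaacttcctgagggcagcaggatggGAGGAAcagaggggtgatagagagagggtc
C1qc (chr4:136892915-136893164): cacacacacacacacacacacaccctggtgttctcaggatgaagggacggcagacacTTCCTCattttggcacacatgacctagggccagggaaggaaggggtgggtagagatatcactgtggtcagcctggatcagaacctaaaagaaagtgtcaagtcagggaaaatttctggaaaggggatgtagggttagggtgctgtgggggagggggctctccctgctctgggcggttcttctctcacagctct
C3 (chr17:57228137-57228386): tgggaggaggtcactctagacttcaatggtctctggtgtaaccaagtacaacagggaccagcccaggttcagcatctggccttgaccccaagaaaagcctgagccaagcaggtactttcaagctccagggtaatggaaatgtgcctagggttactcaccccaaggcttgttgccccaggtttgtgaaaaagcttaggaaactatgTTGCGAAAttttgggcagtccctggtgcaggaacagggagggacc
GAGGAA began 30 bases before the RefSeq start of C1qb and, on the opposite strand, 193 bases before the RefSeq start of C1qc. Of the 32851 promoter windows 28.3% held it on either strand. TTGCNNAA began 45 bases before the C3 start and 10.8% of windows held it, that of C1s1 included. In all 7 motifs were searched on both strands of windows that also held 50 bases after the start. TATAAA (13.6% of windows) occurred in C3 and C7, CTTCCT (ETS family, 35.4%, overlapping the opposite strand of GAGGAA) in C1qb, C1qc and C1s1, and TTCNNNGAA (STAT family, 8.30%) in C7. The NF-kB motif (1.63%) and the interferon response motif (3.44%) occurred in none of the 5. A match is a description of letters and not a binding site.

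C1s1, the protease that C1q activates (ENSMUSG00000038521, chr6:124530345-124542359), was a gene of skin stroma. Fibroblastic cells held 57.3, 209 and 464 CPM as the lowest, median and highest of 8 libraries, and mural cells, the pericyte and smooth muscle class, held 227, 314 and 447 CPM over the 5 libraries with at least 10 of them. The ranges of these classes overlapped. Macrophages stood at 0 to 1.89 CPM of C1s1, and fibroblastic cells held 91.3% of its skin UMIs as a mean over libraries. The gene is overlapped on the opposite strand by Gm16567. In kidney all 9 libraries together held 562 UMIs of C1s1. Its nearest patterns in skin were those of Ebf2, Aspn and Twist1 (r of 0.904 to 0.925), genes of mesenchymal cells.

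The convertase genes C2 and C4b were spread over more classes. C2, the serine protease part of the classical convertase (chr17:34862604-34898265), reached 38.3, 73.3 and 151 CPM in skin fibroblastic cells and 20.1, 34.3 and 93.8 CPM in mast cells (7 libraries), overlapping ranges. In kidney C2 was a tubule gene, with 10.9, 33.5 and 56.3 CPM in proximal tubule cells and 78.9% of its UMIs there as a mean over libraries. C4b, the other part of the convertase (chr17:34728380-34743882), reached 126, 204 and 900 CPM in Schwann cells (7 libraries), 76.1, 237 and 557 CPM in macrophages and 25.1, 178 and 351 CPM in fibroblastic cells of skin, ranges that overlap throughout. In kidney it reached 6.18, 32.1 and 369 CPM in proximal tubule cells and 36.1, 61.3 and 225 CPM in macrophages. C4a, its near copy, is listed in the same 4 skin libraries as the human gene and held 42, 4, 21 and 11 UMIs in SARAWT PBS 1, PBS 2, bleomycin 1 and bleomycin 2, so that reads shared by the copies could be split differently between libraries.

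C3, the central component on which all pathways converge (ENSMUSG00000024164, chr17:57203970-57228136), was made by stromal, epithelial and myeloid classes. In skin the lowest, median and highest libraries were 47.6, 242 and 1279 CPM in fibroblastic cells, 121, 159 and 220 CPM in monocytes (6 libraries), 66.9, 159 and 247 CPM in neutrophils and 41.7, 89.8 and 174 CPM in macrophages. Monocytes, neutrophils and macrophages lay within the range of fibroblastic cells except for the 2 lowest macrophage libraries (41.7 and 42.4 CPM), and dendritic cells, at 0 to 24.5 CPM, lay below it. T and NK cells held at most 2.45 CPM of C3. The share of skin C3 UMIs held by fibroblastic cells ran from 7.9% to 92.0% over libraries. In kidney C3 stood at 5.20, 60.5 and 901 CPM in the proximal tubule, while monocytes stood at 108, 151 and 222 CPM. The small class of injured tubule cells, gated on injury markers, held 1451 CPM (31 cells) and 673 CPM (17 cells) in the libraries labelled SARAWT aristolochic acid 1 and 3, 237 CPM (39 cells) in SARAWT vehicle 3, 323 CPM (17 cells) in SARATg vehicle 2 and 101 CPM (113 cells) in the library labelled SARATg aristolochic acid. The genes nearest to C3 in pattern were Gda, Tlr2 and Pi16 in skin (r of 0.76 to 0.80) and Sirpa and Cebpb in kidney (0.72 and 0.71).

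Cfb, factor B (chr17:34856374-34862518), lay mostly in macrophages in skin (11.9, 68.7 and 407 CPM, 52.1% of its UMIs as a mean over libraries) and in fibroblastic cells (4.92, 35.4 and 124 CPM, 22.9%), and in the proximal tubule in kidney (12.4, 24.6 and 70.4 CPM, 71.8%). Its skin level split by gene list. The 4 skin libraries counted with the longer list stood at 96.2 to 407 CPM in macrophages and the 4 with the shorter list at 11.9 to 41.2 CPM. The shorter list, which all kidney libraries also use, carries a readthrough gene, Gm20547 (chr17:34856412-34882042), whose exons cover 79.5% of the exonic bases of Cfb and 388 of its last 500; it covers 42.8% of C2 but 31 of its last 500 bases. Gm20547 held 0 UMIs in all 13 libraries that list it. Its part in the level of Cfb was not tested, and Cfb is compared below within each list.

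C7, the terminal component (chr15:4988762-5063740), lay mostly in fibroblastic cells in skin, with 98.7% of its 1294 UMIs there. Fibroblastic cells of the libraries labelled SARAWT PBS 1, 2 and 3 held 0 (a count of 0 allows up to 0.333 CPM), 3.87 and 28.5 CPM of C7. Those of SARAWT bleomycin 1, 2 and 3 held 0 (up to 1.15 CPM), 0 (up to 2.03 CPM) and 9.87 CPM, and those of SARATg PBS and bleomycin held 63.2 and 0.13 CPM. Most C7 UMIs came from 1 library, SARATg PBS, with 1105. In kidney C7 held 43 UMIs in all, 33 of them in the 36 fibroblastic cells of SARATg vehicle 2. Those 36 cells also held 1404 CPM of C3 (95% exact Poisson interval 1258 to 1562), 464 CPM of C1s1, 109 CPM of C2, 100.3 CPM of C4b and 58.5 CPM of Cfb. Kidney fibroblastic cells numbered 50 in all libraries together and were not compared between treatments.

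The bleomycin comparison asked whether complement expression differed between fibrosing and control SARAWT skin, overall and within each cell class. In the fit without pairing, edgeR called 0 of the 9 genes at an adjusted p of 0.05, among 0% of the 15273 genes tested over all cells, 0.225% of 10655 in macrophages (0.197% higher and 0.0282% lower) and 0% of 10547 in fibroblastic cells. At an unadjusted p of 0.05 it picked 4 of 9 over all cells, where 18.1% of all genes passed, 2 of 7 in macrophages (11.8%) and 2 of 7 in fibroblastic cells (22.6%). DESeq2 on the same counts called C1s1 over all cells (8.54% of genes), C1qb and C3 in macrophages (2.83%) and C3 in fibroblastic cells (6.47%). Libraries with the same replicate number deviated together in each class, but over all cells and in macrophages some unlike-numbered libraries did so as strongly. With the number as a block edgeR called 3 members over all cells (4.12% of genes), 3 in macrophages (3.78%) and 2 in fibroblastic cells (6.14%). Same-numbered libraries also share a gene list and, for numbers 1 and 2, barcodes, which cannot be told apart from a common day or litter. With the block and without the shared barcodes the counts were 0 (0.0135% of genes), 3 (2.61%) and 1 (0.532%). All p-values measure the spread between libraries, which the labels do not tie to individual mice.

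C3 in skin fibroblastic cells was lower in all 3 bleomycin libraries than in all 3 PBS libraries. The libraries labelled SARAWT PBS 1, 2 and 3 held 662, 1279 and 418 CPM and bleomycin 1, 2 and 3 held 80.5, 177 and 142 CPM, means of 786 ± 444 and 133 ± 48.9 CPM (SD, n = 3). The groups did not overlap. The log2 fold change was -2.53 (SE 0.44), a fold of 0.173 with a 95% interval of 0.0945 to 0.316 (edgeR, adjusted p = 0.0577). With the replicate block C3 fell, at -2.45 (edgeR, adjusted p = 0.0201). Without the shared barcodes the levels of C3 were 790, 1014 and 414 CPM (524, 33 and 349 cells) against 276, 209 and 136 CPM (38, 60 and 123 cells). The groups still did not overlap, and the change was -1.73 (edgeR, adjusted p = 0.158), or -1.73 with the block (adjusted p = 0.0236). With these barcodes out, the deviations of same-numbered and of unlike-numbered libraries correlated over overlapping ranges in each class. Leaving out single libraries gave -2.81 to -1.98. Within the longer gene list the log2 difference of C3 was -2.91 and within the shorter list -1.55. The share of fibroblastic cells with a C3 UMI, thinned to 1000 UMIs with shallower cells left out, was 23.5%, 24.7% and 16.4% in PBS and 13.2%, 17.9% and 9.76% in bleomycin. The shares of PBS 3 and bleomycin 2 thus overlapped, while T and NK cells held at most 0.49%. Shared fibroblastic cells had median depths of 989, 938 and 878 UMIs in PBS 2, bleomycin 1 and bleomycin 2, so that many of them were left out here.

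C3 in skin macrophages lay the other way. The libraries labelled SARAWT PBS 1, 2 and 3 held 41.7, 63.2 and 52.4 CPM and bleomycin 1, 2 and 3 held 174, 139 and 116 CPM, means of 52.4 ± 10.8 and 143 ± 29.1 CPM (SD, n = 3). All bleomycin libraries stood above all PBS libraries. The log2 fold change of C3 was 1.53 (SE 0.25), a fold of 2.89 with a 95% interval of 2.05 to 4.07 (edgeR, adjusted p = 0.0683), and C3 rose with the replicate block, at 1.54 (edgeR, adjusted p = 0.0141). Without the shared barcodes C3 stood at 41.2, 63.6 and 52.6 against 176, 143 and 117 CPM, with a log2 change of 1.60 (edgeR, adjusted p = 0.0747), or 1.60 with the block (0.0144). It was 1.62 without the library labelled PBS 3 (edgeR, adjusted p = 0.0375, 2.53% of genes called), and 1.31 to 1.66 over the libraries left out in turn. The thinned share of macrophages with a C3 UMI was 3.35%, 4.17% and 3.1% in PBS and 15.2%, 11.2% and 9.68% in bleomycin, also without overlap.

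The difference between these opposite C3 changes was itself tested, in 1 edgeR fit over both classes with each library as a block, a test added after the values were seen. Each class is a sum over its cells, and shifts between subsets within a class were not tested apart from changes per cell. The bleomycin effect on C3 in fibroblastic cells minus that in macrophages was -3.94 on the log2 scale (SE 0.44, edgeR, adjusted p = 0.00606 over 13051 genes, of which 0.713% were called). C3 was the only one of the 9 genes called in this fit, and whether Cfb is called depends on the settings. Cfb stood at -1.97 (adjusted p = 0.0661) and C1qc at -1.93 (adjusted p = 0.319), and the other 6 had adjusted p-values above that of C1qc. Cfb was called beside C3 with DESeq2 (1.13% of genes), with RLE size factors (0.782%), without the filter on low counts (2.85%), without PBS 1 (1.11%) and without PBS 3 (2.38%), and C1qc was called as well without the filter and without PBS 3. C1qc was too low for the test in fibroblastic cells alone and entered this fit through macrophages, where it is high, so it is not read as a difference. The ratio of C3 in fibroblastic cells to that in macrophages of the same library, as log2, was 3.99, 4.34 and 2.99 in PBS 1, 2 and 3 and -1.11, 0.35 and 0.29 in bleomycin 1, 2 and 3. An exact two-sided permutation test of these ratios gave p = 0.1, the smallest that 3 against 3 allows. Without the shared barcodes the C3 difference was -3.31 (edgeR, adjusted p = 0.00113). With the libraries labelled PBS 1 and PBS 3 both left out it was -4.52 (adjusted p = 0.192), with 1 PBS library remaining that was assumed to vary like the bleomycin libraries.

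**Figure D2:**
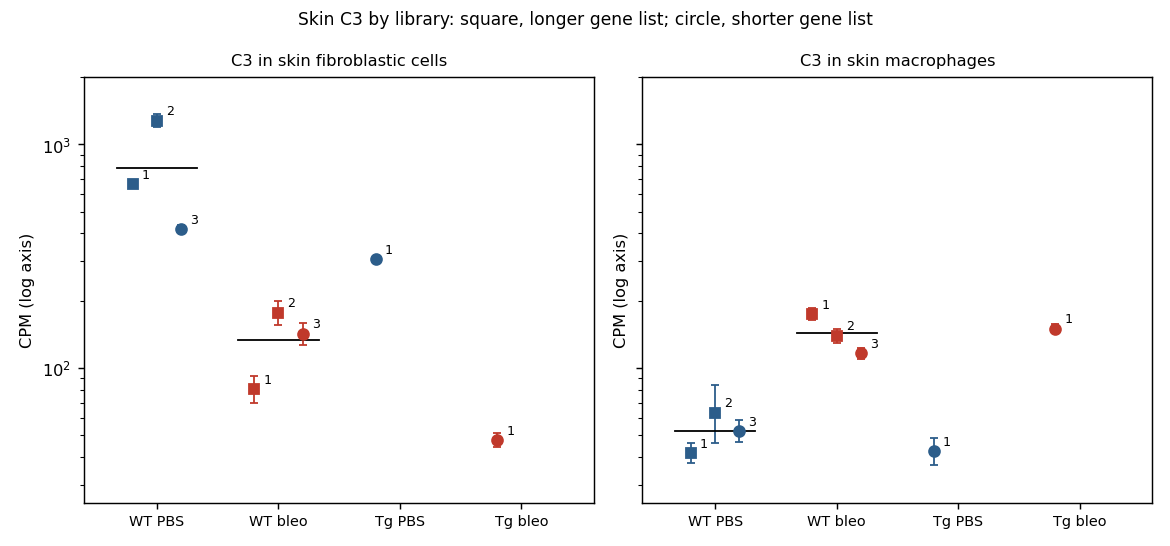
C3 in fibroblastic cells and in macrophages of each skin library, in CPM on a log axis. Points are libraries numbered by replicate, squares those of the longer gene list and circles those of the shorter one, bars are 95% exact Poisson counting intervals and lines are group means. In fibroblastic cells the 3 SARAWT bleomycin libraries (80.5 to 177 CPM) lie below the 3 PBS libraries (418 to 1279 CPM), and in macrophages they lie above them (116 to 174 against 41.7 to 63.2 CPM).

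The single SARATg libraries showed the same order of C3. In fibroblastic cells the SARATg PBS library held 307 CPM of C3 (95% exact Poisson interval 299 to 315) and the SARATg bleomycin library 47.6 CPM (44.3 to 51.2). In macrophages they held 42.4 CPM (36.8 to 48.6) and 150 CPM (143 to 158). These intervals cover counting error only, the groups of 1 library have no spread of their own, and the difference from SARAWT skin was not tested. Shared barcodes made up 0.911% and 0.441% of their fibroblastic cells.

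Over all skin cells the level of C3 mixes these classes. It was 204, 334 and 74.9 CPM in the libraries labelled PBS 1, 2 and 3 and 90.9, 77.7 and 70.5 CPM in bleomycin 1, 2 and 3, groups that overlap, with a log2 fold change of -1.18 (SE 0.45, edgeR, adjusted p = 0.227). Fibroblastic cells were 17.2%, 21.4% and 7.87% of the cells in PBS and 7.44%, 9.49% and 2.05% in bleomycin, or 14.4%, 10.5% and 7.85% against 2.24%, 3.75% and 2.00% without the shared barcodes. Fewer cells of a type and less RNA per cell cannot be told apart in the sum over all cells. With the shared barcodes left out, C3 stood at -0.49 over all cells (adjusted p = 0.543), and without the library labelled PBS 3 C3 and C1s1 were called over all cells, at -1.57 and -2.76 (edgeR, adjusted p = 0.0297 and 0.0267, 6.2% of genes).

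C1qa, C1qb and C1qc in skin macrophages stood higher in bleomycin on average, with C1qb furthest. C1qb held 2235, 2096 and 1333 CPM in the libraries labelled PBS 1, 2 and 3 and 3969, 3575 and 2460 CPM in bleomycin 1, 2 and 3, means of 1888 ± 486 and 3334 ± 783 CPM (SD, n = 3), without overlap. Its log2 fold change was 0.89 (SE 0.25, edgeR, adjusted p = 0.204), or 1.01 without the shared barcodes (adjusted p = 0.203), and C1qb rose with the replicate block, at 0.89 (adjusted p = 0.0330), or 0.998 with the block and without the shared barcodes (adjusted p = 0.0317). C1qa held 2801, 2155 and 1161 CPM against 3696, 3091 and 2149 CPM, so that bleomycin 3 lay within the PBS range, with a change of 0.63 (SE 0.31, adjusted p = 0.479), or 0.68 without the shared barcodes (adjusted p = 0.534). C1qc held 2102, 1537 and 825 CPM against 2321, 2109 and 1379 CPM, again with overlap, and a change of 0.47 (SE 0.32, adjusted p = 0.609), or 0.60 without those barcodes (adjusted p = 0.626). Within each gene list the C1qb log2 difference was 0.80 and 0.88. The SARATg libraries held 1348 CPM of C1qb (95% exact Poisson interval 1315 to 1381) with PBS and 2435 CPM (2406 to 2464) with bleomycin. Over all cells C1qb changed by 1.21 (SE 0.47, adjusted p = 0.230), and it rose with the block, at 1.28 (adjusted p = 0.0224), but not with the block and without the shared barcodes, where it stood at 1.45 (adjusted p = 0.0675).

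Cfb in skin macrophages held 137, 96.2 and 11.9 CPM in the libraries labelled PBS 1, 2 and 3 and 388, 407 and 37.9 CPM in bleomycin 1, 2 and 3, groups that overlap. Both number 3 libraries, the lowest of their groups, have the shorter list. Within the longer list the log2 difference of Cfb between bleomycin and PBS was 1.77 and within the shorter list 1.67. The unpaired change was 1.88 (SE 0.95, edgeR, adjusted p = 0.487), or 1.87 without the shared barcodes (adjusted p = 0.580), and Cfb rose with the replicate block, at 1.80 (adjusted p = 0.00274), with the gene list as a covariate, at 1.79 (adjusted p = 0.00238, 4.26% of genes called), and with the block and without the shared barcodes, at 1.77 (adjusted p = 0.00360). The SARATg libraries, both of the shorter list, held 13.9 CPM of Cfb (95% exact Poisson interval 10.8 to 17.7) with PBS and 41.2 CPM (37.5 to 45.1) with bleomycin. In fibroblastic cells Cfb held 60.2, 124 and 10.5 CPM in PBS and 73.2, 70.3 and 9.87 CPM in bleomycin, with a change of -0.18 (adjusted p = 0.933), or 0.36 without the shared barcodes (adjusted p = 0.952).

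C1s1 in skin fibroblastic cells held 245, 464 and 214 CPM in the libraries labelled PBS 1, 2 and 3 and 121, 218 and 122 CPM in bleomycin 1, 2 and 3, means of 308 ± 136 and 154 ± 55.6 CPM (SD, n = 3). Bleomycin 2 and PBS 3 overlapped. The log2 fold change of C1s1 was -0.97 (SE 0.36, edgeR, adjusted p = 0.167), and it fell with the replicate block, at -0.94 (adjusted p = 0.0346). Cells with unshared barcodes held 286, 450 and 213 against 208, 375 and 122 CPM, with a change of -0.31 (adjusted p = 0.837), or -0.46 with the block (adjusted p = 0.456). Over all cells C1s1 held 71.9, 118 and 26.1 CPM in PBS and 14.7, 15.8 and 6.56 CPM in bleomycin, without overlap, at -2.36 (SE 0.56, adjusted p = 0.0976) and, with the block, -2.24 (adjusted p = 0.0167). How far this sum follows the share of fibroblastic cells given above was not tested. The all-cell value of C1s1 without the shared barcodes was -2.20 unpaired and -2.30 with the block, neither of them called (adjusted p = 0.109 and 0.0675). In SARATg fibroblastic cells C1s1 held 204 CPM (95% exact Poisson interval 198 to 211) with PBS and 57.3 CPM (53.6 to 61.2) with bleomycin.

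C2 and C4b overlapped between the skin groups in each class. C2 in fibroblastic cells held 43.3, 151 and 88.5 CPM in the libraries labelled PBS 1, 2 and 3 and 67.5, 79.1 and 63.0 CPM in bleomycin 1, 2 and 3, with a change of -0.38 (edgeR, adjusted p = 0.631), and over all cells C2 stood at -1.42 (SE 0.53, adjusted p = 0.222). With the shared barcodes left out these were -0.13 and -1.43 (adjusted p = 0.967 and 0.138). With the gene list as a covariate C2 fell over all cells, at -1.45 (adjusted p = 0.0442, 6.01% of genes called). C4b in fibroblastic cells held 109, 248 and 293 CPM in PBS and 61.7, 96.0 and 286 CPM in bleomycin, at -0.56 (SE 0.59, adjusted p = 0.608), and in macrophages 557, 265 and 76.1 CPM against 294, 239 and 235 CPM, at -0.12 (adjusted p = 0.966). With the shared barcodes left out C4b stood at -0.20 in both classes (adjusted p = 0.922 in fibroblastic cells and 0.965 in macrophages). The libraries of C4b in macrophages went apart by gene list, with a log2 difference of -0.63 within the longer list and 1.63 within the shorter one. The SARATg libraries held 351 CPM of C4b (95% exact Poisson interval 342 to 360) with PBS and 25.1 CPM (22.7 to 27.7) with bleomycin in fibroblastic cells, and 210 and 152 CPM in macrophages.

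**Figure D3:**
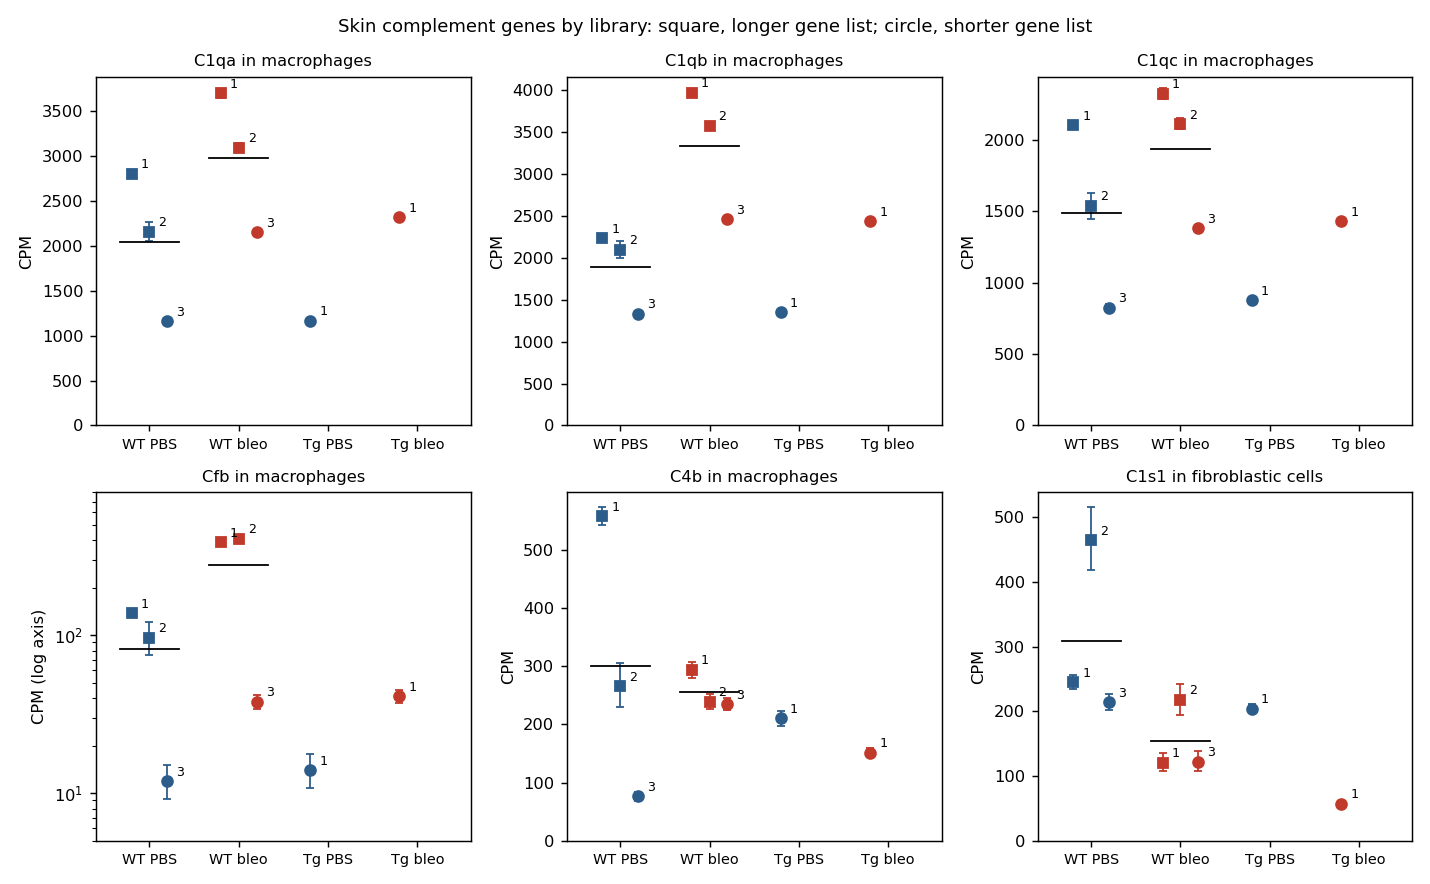
CPM per skin library of C1qa, C1qb, C1qc, Cfb (log axis) and C4b in macrophages and of C1s1 in fibroblastic cells. Points are libraries numbered by replicate, squares those of the longer gene list and circles those of the shorter one, bars are 95% exact Poisson counting intervals and lines are group means. The SARAWT groups do not overlap for C1qb (1333 to 2235 CPM in PBS, 2460 to 3969 CPM in bleomycin), and Cfb separates by gene list within each group.

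The aristolochic acid comparison asked the same of injured SARAWT kidney. edgeR called 0 of the 9 genes, among 0% of genes tested over all cells, in macrophages and in the proximal tubule. At an unadjusted p of 0.05 it picked 0 of 8 over all cells, where 8.57% of genes passed, 1 of 6 in macrophages (5.53%) and 2 of 8 in the proximal tubule (9.1%), and DESeq2 called 0 in each (0.426%, 0.161% and 0.939% of genes). The replicate numbers did not pair these libraries. One vehicle library stood apart in its cells. SARAWT vehicle 3 held 51.0% T and NK cells and 12.1% proximal tubule cells, against 4.68% and 4.95% and 80.1% and 74.8% in vehicle 1 and 2, and 51.8% to 64.9% and 6.09% to 26.1% in the 3 aristolochic acid libraries. Without vehicle 3 edgeR called 4 members over all cells (32.3% of genes), 3 in macrophages (10.5%) and 3 in the proximal tubule (3.07%). Of those in macrophages, C2 entered the test only there, and Cfb passed the filter on low counts there only through the treated libraries. Neither is read as a change. The fold changes of SARAWT kidney below are therefore given with and without that library.

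C3 in kidney proximal tubule cells and macrophages was low in vehicle 1 and 2 and high in vehicle 3 and after aristolochic acid. In proximal tubule cells SARAWT vehicle 1, 2 and 3 held 5.20, 6.43 and 147 CPM and the libraries labelled aristolochic acid 1, 2 and 3 held 256, 95.6 and 901 CPM, groups that overlap through vehicle 3. The log2 fold change of C3 was 2.72 (SE 1.43, edgeR, adjusted p = 0.500), and without vehicle 3 C3 rose, at 5.89 (adjusted p = 0.0368). In macrophages C3 held 18.2, 5.81 and 126 CPM against 210, 99.7 and 111 CPM, at 1.32 (SE 0.93, adjusted p = 0.809) and, without vehicle 3, 3.73 (adjusted p = 0.0137). T and NK cells of the same libraries held 0, 1.93 and 10.1 CPM of C3 against 2.94, 4.50 and 25.9 CPM, at 1.10 and, without vehicle 3, 3.60 (adjusted p = 0.930 and 0.255). The thinned share of proximal tubule cells with a C3 UMI was 0.37%, 0.51% and 5.57% in vehicle and 10.2%, 5.46% and 31.9% after aristolochic acid, and at most 0.83% of T and NK cells.

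C4b in kidney macrophages held 43.9, 61.3 and 66.8 CPM in SARAWT vehicle 1, 2 and 3 and 144, 55.6 and 225 CPM in the libraries labelled aristolochic acid 1, 2 and 3, with aristolochic acid 2 inside the vehicle range. Its log2 fold change was 1.25 (SE 0.44, edgeR, adjusted p = 0.806), and 1.45 without vehicle 3 (adjusted p = 0.108). T and NK cells of the same libraries held 1.68, 1.28 and 3.91 CPM of C4b against 13.3, 11 and 14.1 CPM, without overlap, at 2.24 (SE 0.41, edgeR, adjusted p = 0.874) and 3.34 without vehicle 3 (adjusted p = 0.0303, 1.24% of genes called). The part of this signal in the C4b values of macrophages and tubule cells was not tested. In the proximal tubule C4b held 32.1, 6.18 and 206 CPM against 116, 237 and 369 CPM, at 1.34 (SE 1.10, adjusted p = 0.603) and 3.36 without vehicle 3 (adjusted p = 0.0819). Cfb in the proximal tubule held 16.4, 12.4 and 32.7 CPM against 29.1, 45.5 and 70.4 CPM, with aristolochic acid 1 below vehicle 3, at 1.02 (SE 0.45, adjusted p = 0.500) and 1.51 without vehicle 3 (adjusted p = 0.0807). In macrophages Cfb held 1.65, 0.894 and 13.8 CPM against 14.9, 4.75 and 33.9 CPM, at 1.31 (SE 0.87, adjusted p = 0.806) and 4.01 without vehicle 3 (adjusted p = 0.0485). Without vehicle 3 Cfb passed the filter on low counts only through the treated libraries, where it is high, so it is not read as a change.

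C2 in the proximal tubule held 15.6, 19.2 and 35.7 CPM in SARAWT vehicle 1, 2 and 3 and 33.5, 37.0 and 56.3 CPM in the libraries labelled aristolochic acid 1, 2 and 3, means of 23.5 ± 10.8 and 42.3 ± 12.3 CPM (SD, n = 3). Only vehicle 3 reached the treated range. The log2 fold change of C2 was 0.64 (SE 0.35, edgeR, adjusted p = 0.502), and 1.07 without vehicle 3 (adjusted p = 0.0649). In macrophages C2 held 7.45, 11.6 and 1.98 CPM against 1.69, 2.04 and 1.86 CPM, was too low for the test with all libraries. It passed the filter on low counts only without vehicle 3, through the other two vehicle libraries, where it is high, so no fold change is given for it.

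C1qa, C1qb and C1qc in kidney macrophages overlapped between the groups. C1qa held 5003, 5717 and 7436 CPM in SARAWT vehicle 1, 2 and 3 and 7141, 6443 and 5966 CPM in the libraries labelled aristolochic acid 1, 2 and 3. Its fold was 1.06 with a 95% interval of 0.773 to 1.44 (edgeR, adjusted p = 0.961), and the intervals of C1qb and C1qc were 0.780 to 1.44 and 0.804 to 1.57. Without vehicle 3 the log2 fold changes of C1qa, C1qb and C1qc were 0.32, 0.27 and 0.43 (adjusted p = 0.232, 0.362 and 0.134). Over all cells C1qa held 71.6, 169 and 1999 CPM against 1562, 543 and 1104 CPM, at 0.45 (SE 1.20, adjusted p = 0.844) and 3.07 without vehicle 3 (adjusted p = 0.0231). Macrophages were 2.82%, 4.68% and 13.9% of the vehicle cells and 10.8%, 3.18% and 6.78% of the treated cells. In proximal tubule cells C1qa held 1.49, 3.54 and 8.06 CPM against 15.4, 20.4 and 17 CPM, at 1.89 (SE 0.58, adjusted p = 0.500) and 2.65 without vehicle 3 (adjusted p = 0.0284). T and NK cells of these libraries held 0.839, 1.28 and 144 CPM against 66.2, 21.6 and 39.5 CPM, above the tubule cells in 4 of the 6 libraries and below them in vehicle 1 and 2, and without vehicle 3 their C1qa change was 5.49 (edgeR, adjusted p = 0.0479). Its part in the C1qa of tubule cells was not tested.

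**Figure D4:**
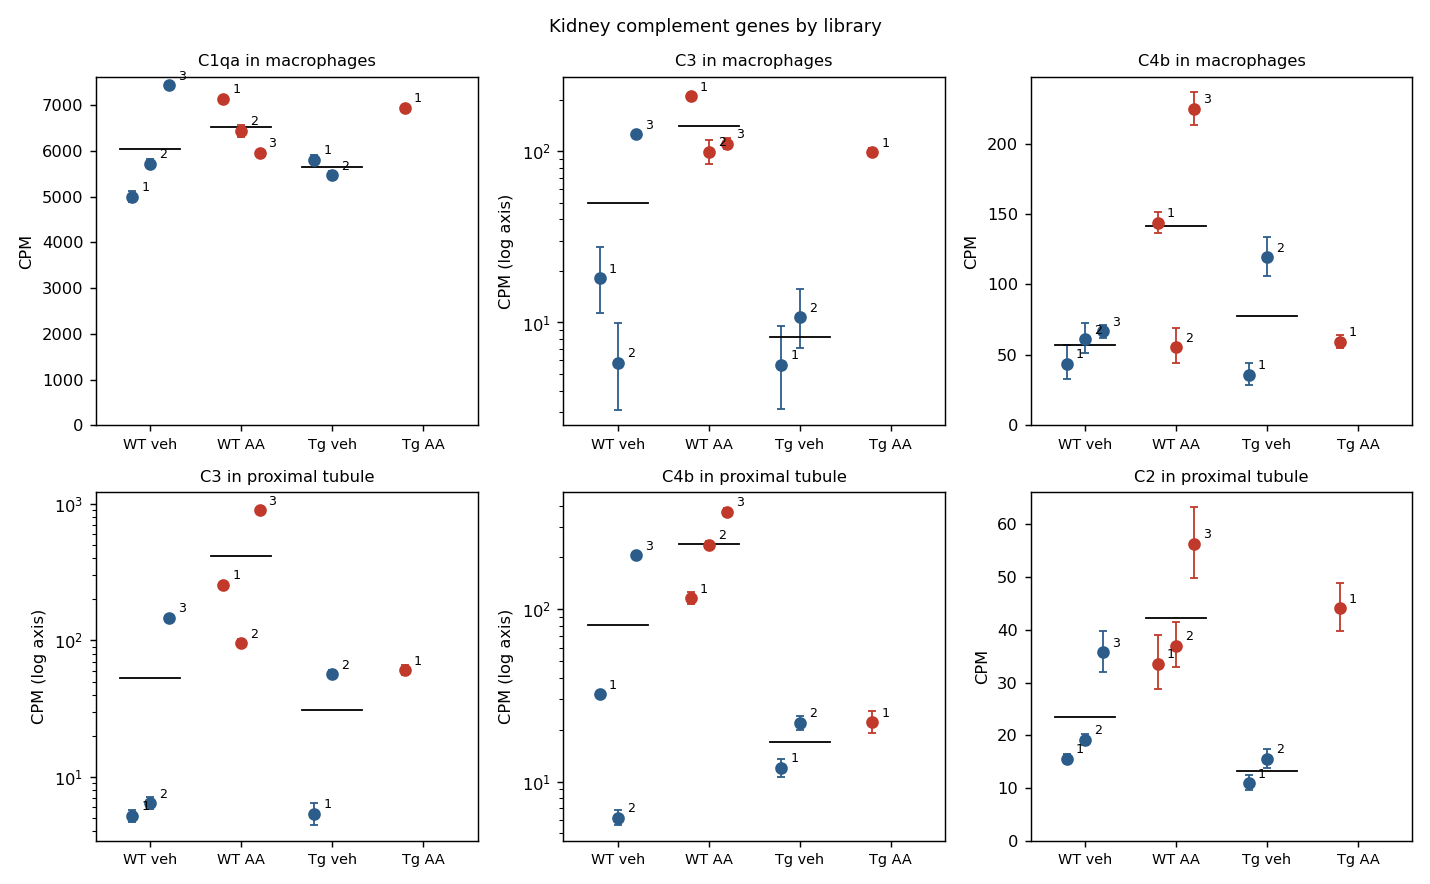
CPM per kidney library of C1qa, C3 (log axis) and C4b in macrophages and of C3 (log axis), C4b (log axis) and C2 in proximal tubule cells. Points are libraries numbered by replicate, bars are 95% exact Poisson counting intervals and lines are group means. SARAWT vehicle 3 lies with the aristolochic acid libraries for C3 (147 CPM in the proximal tubule against 5.20 and 6.43 CPM in vehicle 1 and 2), while C1qa in macrophages overlaps between the SARAWT groups.

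The transgene comparison in kidney set 2 SARATg vehicle libraries against 3 SARAWT vehicle libraries. edgeR called 0 of 8 tested members over all cells, 0 of 6 in macrophages and 0 of 7 in the proximal tubule (0% of genes in each), 0 also at an unadjusted p of 0.05 (2.73%, 3.09% and 4.34% of genes), and DESeq2 called 0 of them (0.546%, 0.0705% and 0.332%). The largest difference was C3 in macrophages, with 5.67 and 10.7 CPM in SARATg vehicle 1 and 2 against 18.2, 5.81 and 126 CPM in SARAWT, a log2 difference of -2.84 (SE 1.30, adjusted p = 0.999). In the proximal tubule C4b held 12 and 22.0 CPM against 32.1, 6.18 and 206 CPM, at -2.16 (SE 1.36, adjusted p = 0.899). Without SARAWT vehicle 3 these differences were -0.44 and -0.16 (adjusted p = 0.944 and 0.979). Over all cells C1qa, C1qb and C1qc stood at -0.90, -0.83 and -0.90, and without vehicle 3 at 1.78, 1.74 and 1.82 (adjusted p = 0.0846, 0.0935 and 0.0909). With the replicate block, where vehicle 3 has no partner, they were 1.86, 1.84 and 1.93 (edgeR, adjusted p = 0.0375, 0.0434 and 0.0426, 8.97% of genes called).

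The last comparison asked whether the aristolochic acid effect differed between SARATg and SARAWT kidney. edgeR called 0 of 7 members in macrophages and 0 of 8 in the proximal tubule (0% of genes in each), 0 also at an unadjusted p of 0.05 (2.8% and 3.78% of genes), and DESeq2 called 0 of them (0.0993% and 0.0668%). The group of 1 SARATg aristolochic acid library has no spread of its own and was assumed to vary like the other groups, and Zfyve9 went against the label in it and in SARAWT aristolochic acid 1. The absence of calls therefore does not show that the effects were alike. The library labelled SARATg aristolochic acid held 99.2 CPM of C3 in macrophages. This lay within the SARAWT vehicle range but just below every SARAWT aristolochic acid library given above. Its 6944 CPM of C1qa in macrophages lay within the ranges of both SARAWT groups. In its proximal tubule cells C3 stood at 60.5 CPM, beside 5.38 and 56.8 CPM in SARATg vehicle 1 and 2. This tubule value lay below every SARAWT aristolochic acid library given above. For C3 the difference of effects in macrophages was 2.37 (SE 1.61), and -0.05 without SARAWT vehicle 3. In the proximal tubule it was -2.85, -2.04 and -2.68 for C1qa, C1qb and C1qc and 2.94 for C1s1. There it was 0.73 for C2, -2.11 for C3, -1.32 for C4b and -1.20 for Cfb, with standard errors of 0.58 to 2.60 over these genes.

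**Figure D5:**
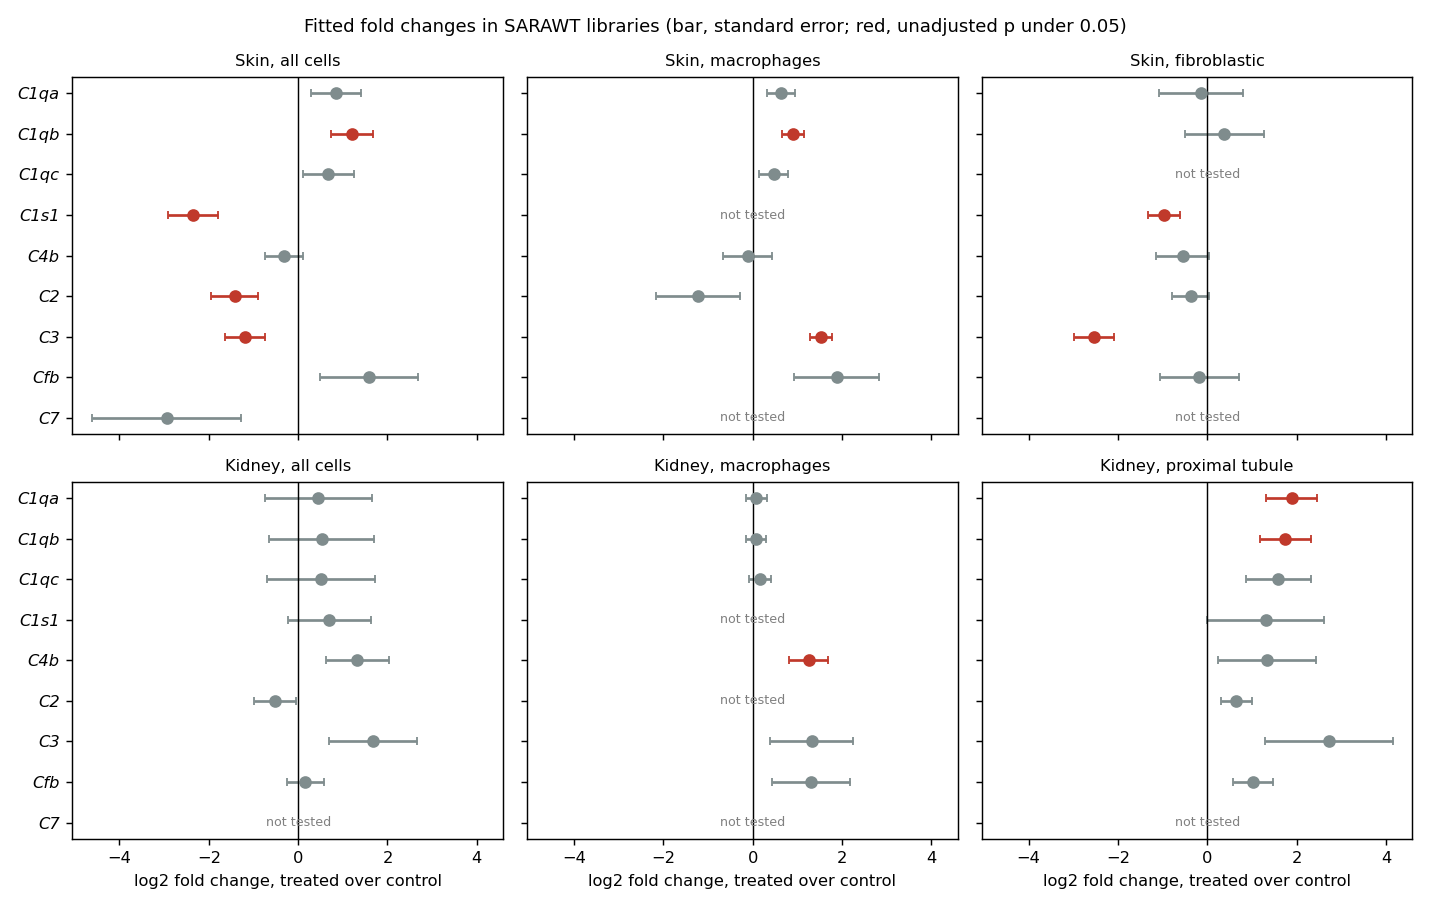
Log2 fold change with its standard error for each of the 9 genes that was tested, bleomycin against PBS in SARAWT skin (all cells, macrophages, fibroblastic cells) and aristolochic acid against vehicle in SARAWT kidney (all cells, macrophages, proximal tubule), from the edgeR fits without pairing. Red marks an unadjusted p under 0.05. C3 lies at 1.53 in skin macrophages and -2.53 in skin fibroblastic cells, and the kidney standard errors reach 1.43.

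The other genes of the pathway were followed as a list of 41 initiators, alternative and terminal components, regulators and receptors. In the unpaired edgeR fits 0 of them passed in any of the 11 comparisons. In skin, 8 of 25 tested had an unadjusted p under 0.05 over all cells, 4 of 16 in macrophages and 4 of 12 in fibroblastic cells, beside the 18.1%, 11.8% and 22.6% of all genes. Their median log2 fold changes were -0.11, -0.36 and 0.17, with 0.01, -0.01 and -0.02 for all genes. In kidney 1 of 29, 2 of 16 and 3 of 17 had an unadjusted p under 0.05 for aristolochic acid over all cells, in macrophages and in the proximal tubule, beside 8.57%, 5.53% and 9.1% of all genes, with medians of 0.56, 0.47 and 0.42 beside -0.05, 0.00 and -0.01 for all genes.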

How the data were processed

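The deposited files are filtered 10x 3' v3 matrices, 1 per library, holding raw UMI counts. The authors produced these counts on mm10 with Cell Ranger (3.0.2 per the labels; 3.0.2, 3.1.0 or 4.0.0 per the file headers), and the submitters' notes also name Seurat 2.3.4. The longer gene list (32286 entries) is that of 4 skin libraries, the shorter (31053) of the other 13, and the 30406 shared genes were used. The members and lists were chosen with earlier results of these data known. Cells below 200 detected genes or above 20% mitochondrial UMIs were dropped. The barcodes with the highest Scrublet scores (scanpy 1.11.5, Python 3.11.15), 0.8% per 1000 cells, were removed as predicted doublets. Cells were gated by marker lists, and raw UMIs were summed per library and class with at least 10 cells.

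Sums were tested with edgeR 4.0.16 (R 4.3.3, quasi-likelihood, TMM, filterByExpr, Benjamini-Hochberg over all genes tested, threshold 0.05), with only the 2 groups compared in the skin and the simple kidney fits and all 4 kidney groups for the difference of effects. DESeq2 1.42.0, other scaling, filters, gates, libraries left out, gene list and replicate block were alternatives, as was the removal of barcodes found in several libraries, which was chosen after seeing the data. The 9 members were tested in every comparison where they passed the filter on low counts, and the text gives the values of only a part of them. Other pathway genes were to be named only if they passed. Likeness is Pearson r over class-by-library sums, among genes with a mean of at least 10 CPM. Counting intervals are 95% exact Poisson intervals, the limit for a count of 0 is 3 counts, and both cover counting error only. Scripts were tested on simulated counts with changes of 2 on the log2 scale planted in 200 genes with a mean of at least 10 counts. The simulated spread followed the fitted trend alone, without gene-specific spread, gene lists or shared barcodes. The recovered shares may therefore be higher than in the real data. Over all cells, in macrophages and in fibroblastic or proximal tubule cells, 74.5%, 84% and 86% were recovered for bleomycin. For aristolochic acid these were 17.5%, 84.5% and 73%, and for SARATg vehicle 4.5%, 64.5% and 44%. The differences of effects gave 21% in macrophages and 2.5% in the proximal tubule. An absence of calls says little there and over all kidney cells.

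Replicate numbers come from the sample titles. In skin the deviations of same-numbered PBS and bleomycin libraries correlated at 0.132 to 0.549 (all cells), 0.202 to 0.562 (macrophages) and 0.195 to 0.358 (fibroblastic cells). Those of unlike-numbered libraries reached 0.219, 0.347 and 0.0487, so that only in fibroblastic cells did every same-numbered value lie above every unlike-numbered one. Without the shared barcodes the same-numbered values were 0.0124 to 0.390, 0.121 to 0.451 and 0.0194 to 0.196. The unlike-numbered ones were then -0.285 to 0.200, -0.380 to 0.261 and -0.113 to 0.0507, overlapping in each class. Depth ran from 3355217 to 137093834 UMIs per library.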

Additional observations from a re-analysis of the deposited data

Results flagged for a closer look

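The bleomycin effect on C3 differed between the cell classes of the skin libraries labelled SARAWT. Fibroblastic cells minus macrophages gave -3.94 on the log2 scale (edgeR with each library as a block, adjusted p = 0.00606). C3 was lower with bleomycin in fibroblastic cells and higher in macrophages. In most of these libraries transgene reads or Zfyve9 went against the label, as given above. They were higher in PBS than in bleomycin within each gene list, and their part in the C3 difference was not tested. The direction held in all 3 numbered pairs of libraries, with log2 ratios of 3.99, 4.34 and 2.99 in PBS against -1.11, 0.35 and 0.29 in bleomycin. The test was added after the values had been seen. The part played by shared barcodes was measured as the value without them, -3.31 (adjusted p = 0.00113).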

How the results depend on the processing

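Over 633 alternatives of the members' fold changes given in the report, 572 kept direction and side of the threshold, 35 passed where the unpaired fit did not, 1 no longer passed and 25 turned direction, of which 3 also passed (C1qa, C1qb and C1qc of SARATg vehicle with the replicate block). In skin, C4b in macrophages (-0.12) was 0.23 with the replicate block, 0.16 with the gene list, 0.16 with the replicate block without shared barcodes and 0.00938 with PBS 1 and PBS 3 out (-0.56 to 0.62 over single libraries left out), and in fibroblastic cells Cfb (-0.18) was 0.36 without shared barcodes, 0.0483 with the replicate block without them and -0.72 to 0.62 over libraries left out, and C2 (-0.38) -0.77 to 0.0759. In kidney, ranges over libraries left out were -0.0813 to 3.07 for C1qa over all cells (0.45, with -0.01 without vehicle 2), -0.0696 to 0.32, -0.0660 to 0.27 and -0.0132 to 0.43 for C1qa, C1qb and C1qc in macrophages and -0.0535 to 2.94 for the difference of effects on C3. For SARATg vehicle, C1qa, C1qb and C1qc over all cells (-0.90, -0.83 and -0.90) ran from -1.44 to 1.78, -1.37 to 1.74 and -1.44 to 1.82, the highest without vehicle 3, and C4b in the proximal tubule (-2.16) was 0.30 with the replicate block. The cause of the changes was not tested. In the following, counts are members, then genes.

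Skin, all cells (0 and 0): DESeq2 1 and 1304, no filter on low counts 1 and 384, replicate block 3 and 630, gene list 4 and 918, all 4 groups 6 genes, PBS 1 and PBS 3 both left out 18 genes, replicate block without shared barcodes 2 genes, single libraries left out 0 to 2 and 0 to 952 (most without PBS 3). Macrophages (0 and 24): DESeq2 2 and 302, no filter 1 and 293, replicate block 3 and 403, gene list 3 and 454, wider class 0 genes, without shared barcodes 10 genes, replicate block without shared barcodes 3 and 276, PBS 1 and PBS 3 out 1 gene, single libraries 0 to 1 and 0 to 281. Fibroblastic cells (0 and 0): DESeq2 1 and 682, no filter 1 and 724, replicate block 2 and 648, replicate block without shared barcodes 1 and 50, and 9, 21, 51, 64 and 11 genes with doublets kept, all 4 groups, gene list, stricter gate and wider class, single libraries 0 and 0 to 2. The class difference (1 and 93): DESeq2 2 and 147, RLE 2, no filter 3 and 612 (the further members Cfb and, at 3, C1qc), wider class 31 genes, without shared barcodes 40 genes, PBS 1 and PBS 3 out 0 and 0, where C3 stood at -4.52, single libraries -4.39 to -3.53 for C3, 1 to 3 and 13 to 311.

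Kidney, aristolochic acid (0 and 0 in each): DESeq2 67 genes over all cells, 17 in macrophages and 111 in the proximal tubule, no filter 1 gene in macrophages, replicate block 2 genes in the proximal tubule, single libraries 0 to 4 and 0 to 5205, 0 to 3 (with C2, tested only there, and Cfb, near the floor in vehicle 1 and 2) and 0 to 1038, 0 to 3 and 0 to 373, the highest each without vehicle 3. SARATg vehicle: DESeq2 88, 7 and 43 genes, no filter 2 genes in macrophages, replicate block 3 and 1447 over all cells (C1qa 1.86, C1qb 1.84, C1qc 1.93) and 2 genes in macrophages, single libraries 0 to 685, 0 to 1 and 0 genes. Difference of effects: DESeq2 11 and 9 genes, no filter 1 and stricter cell filter 1 gene in macrophages, single libraries 0 to 6 and 0 to 4 genes. Replicate numbers did not pair the kidney libraries (same-number r -0.389 to 0.431 over all cells). SARATg and SARAWT vehicle share only 2 numbers (r 0.212 and 0.214 over all cells, -0.101 and 0.168 in macrophages, 0.0516 and 0.277 in the proximal tubule), too few for the pairing to be judged. The replicate block changed no other call. Kidney fibroblastic cells were too few to fit, and the differences of effects could not be fitted without SARATg aristolochic acid 1. Settings on shared barcodes, on T and NK cells, on PBS 1 with PBS 3 and on the class difference were chosen after seeing the data. Depth limits C7 and, in kidney, C1s1.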

Other observations

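C4b in skin Schwann cells, a class with few cells and no comparison of its own, held 502 and 185 CPM in the libraries labelled SARAWT PBS 1 and 3, 138, 126 and 204 CPM in SARAWT bleomycin 1, 2 and 3, and 900 CPM (95% exact Poisson interval 776 to 1038) and 261 CPM (234 to 290) in SARATg PBS and bleomycin. C3 in skin neutrophils did not pass between PBS and bleomycin (log2 fold change 0.35, edgeR, adjusted p = 0.979), and C3 in kidney monocytes stood at -0.17 with aristolochic acid (adjusted p = 1).

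The genes nearest to the other members in pattern over the skin sums were Tmem9, Prrc1 and P4ha2 for C2 (r of 0.727 to 0.781), Steap3, Timp2 and Dennd2a for C4b (0.725 to 0.783), Igf1, Pltp and Rab3il1 for Cfb (0.700 to 0.736) and Cpz, Cyp2f2 and Itgbl1 for C7 (0.642 to 0.684). In kidney they included Mdk, Folh1 and Gc for C2 (0.719 to 0.731) and Maf for C4b (0.709).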
